A study of Mus musculus with 34 samples.

Results

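Heat shock proteins were followed in heart and adipose tissue of aged mice through 9 genes, Hspa1a, Hspa1b, Hspa8, Hsph1, Hsp90aa1, Dnajb1, Hspb1, Hspd1 and Hspe1, chosen by name as the main stress-inducible and constitutive chaperones of the cytosol and the mitochondrial matrix. The choice was made with earlier results of these data known. All 9 had a row in both tissues, among 15777 genes listed in either tissue, 15145 of them in adipose tissue and 13238 in heart. All 9 also passed the filter on low counts in both tissues. The mice were C57BL/6J animals aged 20 to 22 months. One group, HFCD+FMD, ate a high-fat, high-calorie diet with 60% of calories from fat and went through a 5-day fasting-mimicking diet every 4 weeks; from cycle 6 on, each of these was followed by 2 days of control diet. A group labelled HFCD ate the same high-fat diet without interruption, and the control group ate a diet with 10% of calories from fat. Tissue was collected after 11 cycles, 4 days after the last fasting-mimicking diet. Adipose tissue gave 6 HFCD+FMD, 4 HFCD and 3 control libraries, and heart gave 4 HFCD+FMD, 5 HFCD and 5 control libraries, each holding between 15604982 and 47859170 counted reads. The labels do not tie a library to an animal, so the p-values measure the spread between these libraries.

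Cells keep proteins folded with relays of chaperones. HSP70 proteins bind exposed hydrophobic stretches with the help of J-domain partners and nucleotide exchange factors, HSP90 finishes the folding of kinases and steroid receptors, small heat shock proteins hold unfolded proteins in a soluble state, and the HSP60 and HSP10 proteins build the folding chamber of the mitochondrial matrix. Many of these genes are transcribed under heat shock factor 1 (HSF1), which is held inactive by chaperones and binds inverted repeats of GAA when unfolded proteins draw those chaperones away. Heart muscle relies on small heat shock proteins and mitochondrial chaperones under mechanical and oxidative load, and in fat tissue heat shock proteins have been studied in obesity and insulin resistance.

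The sequences upstream of the members were read from RefSeq (GRCm38.p6) to show which of them carry the letters of HSF1 elements. They also show why the 2 inducible HSP70 genes are read together: over the 150 bases before their starts, Hspa1a and Hspa1b are identical at 149 positions. Capitals mark matches to GAANNTTC, the inverted repeat of HSF1 units, or to the same units in the other order. The 150 bases are chr17:34972157-34972306 (minus strand) for Hspa1a, chr17:34959239-34959388 (minus strand) for Hspa1b and chr5:135887769-135887918 (plus strand) for Hspb1.
Hspa1a: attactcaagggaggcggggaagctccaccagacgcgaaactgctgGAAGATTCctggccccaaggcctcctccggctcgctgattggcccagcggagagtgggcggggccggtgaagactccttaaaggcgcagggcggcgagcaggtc
Hspa1b: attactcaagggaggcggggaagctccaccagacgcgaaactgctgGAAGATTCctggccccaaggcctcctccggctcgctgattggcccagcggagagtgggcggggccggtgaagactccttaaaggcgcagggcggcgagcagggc
Hspb1: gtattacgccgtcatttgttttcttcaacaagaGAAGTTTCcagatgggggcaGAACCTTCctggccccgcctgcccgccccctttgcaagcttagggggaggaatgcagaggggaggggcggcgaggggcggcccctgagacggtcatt
The next pair shows longer runs of alternating units, at chr1:55088053-55088082 (plus strand) inside annotated Hspd1, upstream of Hspe1 and of the second RefSeq start of Hspd1 at position 55087932, and at chr5:149636279-149636308 (minus strand) just past the start of Hsph1.
Hspe1: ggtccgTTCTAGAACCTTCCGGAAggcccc
Hsph1: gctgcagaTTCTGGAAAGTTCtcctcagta

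Counting back from the base before the annotated start, the match of Hspa1a and Hspa1b lay at positions -104 to -97, and Hspb1 had matches at -117 to -110 and at -97 to -90. Among all 32851 windows of 250 bases before to 50 after a start, searched on both strands, 7.86% held GAANNTTC, 8.52% held TTCNNGAA and 0.603% held a 3-unit run, GAANNTTC followed at once by NNGAA. Windows were found for 7 members, not for Hspa8 or Hsp90aa1, and 6 of the 7 held at least one of the first 2 patterns, which overlap the third wherever it occurs. Hsph1, Hspd1 and Hspe1 held the 3-unit run. Neither of the 2 windows of Dnajb1 held a match, and 1 of them held CCAAT, as did 37.4% of all windows. These are matches of letters, and nothing was measured on binding of HSF1.

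The genes lie in GENCODE M21 on GRCm38 at chr17:34969190-34972156 (Hspa1a, minus strand) and chr17:34956436-34959238 (Hspa1b, minus strand), each a single exon. Hspa8 (chr9:40800984-40810087, plus strand) and Dnajb1 (chr8:83608193-83612653, plus strand) are spliced, as are Hsph1 (chr5:149614287-149636376, minus strand), Hsp90aa1 (chr12:110690605-110702728, minus strand) and Hspb1 (chr5:135887919-135889563, plus strand). Hspd1 (chr1:55077835-55088243, minus strand) and Hspe1 (chr1:55088132-55091307, plus strand) overlap head to head by 112 bases. Gm20481 on the opposite strand covers 2225 bases of Hspa1a, and how the reads were assigned to strands is not given in the sources used here.

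Several members share sequence with other genes, which bears on what their counts hold. The aligned transcripts of Hspa1a and Hspa1b were identical at 2181 of 2197 bases (99.3%), so the split of reads between them is uncertain, and their summed counts are given beside each. Of the 50-base stretches of the longest transcript, 66.3% in Hspa1a, 62.3% in Hspa1b, 58.5% in Hsp90aa1, 52.7% in Hspa8, 51.6% in Hspb1 and 44.8% in Hspd1 also occur in a transcript of another gene. The share was 8.20% in Hspe1, 0.441% in Dnajb1 and 0 in Hsph1. How reads with several matches were counted is not given either. Gapdh, a glycolytic gene with 27.8% of its stretches shared with 218 other genes, was listed at only 1.07 to 2.63 unscaled counts per 1000000 (CPM) in adipose libraries, and the part of its copies in that level was not tested.

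Levels per length set the scale of the system. The length is the union of all annotated exons of a gene. It is 7266 bases for Hsph1 and 1474 for Hspe1, whose longest transcripts have 4764 and 964 bases. The order of members depends on the length used. Per kilobase of exon, control adipose tissue held 83.2 ± 12.1 CPM per kb of Hspa8, the constitutive HSP70, 50.2 ± 7.45 of Hspd1, the HSP60 chaperonin, and 20.0 ± 1.01 of Hsp90aa1 (SD, n = 3). Hspe1, the HSP10 lid of that chaperonin, followed at 13.7 ± 2.43 CPM per kb. Hspb1, Hsph1 and Dnajb1 stood at 9.16, 8.68 and 8.39 CPM per kb and, by this length, did not differ beyond their spread. The inducible pair was lowest, at 2.68 ± 0.438 CPM per kb for Hspa1b and 1.38 ± 0.268 for Hspa1a. In control hearts the order again began with Hspa8 (47.3 ± 9.17 CPM per kb) and Hspd1 (36.4 ± 6.41), whose ranges overlapped, followed by Hspb1 at 23.6 ± 6.39 (SD, n = 5). Hspa1a and Hspa1b came last, at 0.682 ± 0.0938 and 0.456 ± 0.150 CPM per kb. Reads lost to copies would lower these levels, by an amount that was not measured.

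In adipose tissue the high-fat diet went with less RNA of 5 of the 9 members. Hspa1a, Hspa1b, Hsp90aa1, Hspd1 and Hspe1 fell in HFCD against control at an adjusted p under 0.05 (edgeR's quasi-likelihood test with Benjamini-Hochberg adjustment over all 15112 genes tested, as everywhere below unless another tool is named). None rose, and the median log2 fold change of the 9 was -0.62, against -0.0014 for all genes tested. Changes were common on this diet: 30% of all genes passed in either direction and 14.2% fell. Since the members were chosen with earlier results known, these shares are a description. The 5 members that fell were also those whose HFCD and control libraries did not overlap, which held for 39.5% of all genes. DESeq2 and limma voom called the same 5 genes, with 35.3% and 25.2% of all genes. The HFCD+FMD libraries lay on the HFCD side of control for Hsp90aa1, which fell against control as well, and 19.7% of all genes passed in that comparison. DESeq2 called 2 members there (26.6% of all genes), limma voom 1 (12.8%) and edgeR with age as a covariate 2 (17.2%). Against HFCD none of the 9 passed, with a background of 0.205% of all genes. At an unadjusted p under 0.05 there were 5 members in HFCD against control and 5 in HFCD+FMD against control, with 42.3% and 36.1% of all genes. Each diet's libraries serve 2 comparisons, so the 3 sets of values are not independent.

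**Figure D1:**
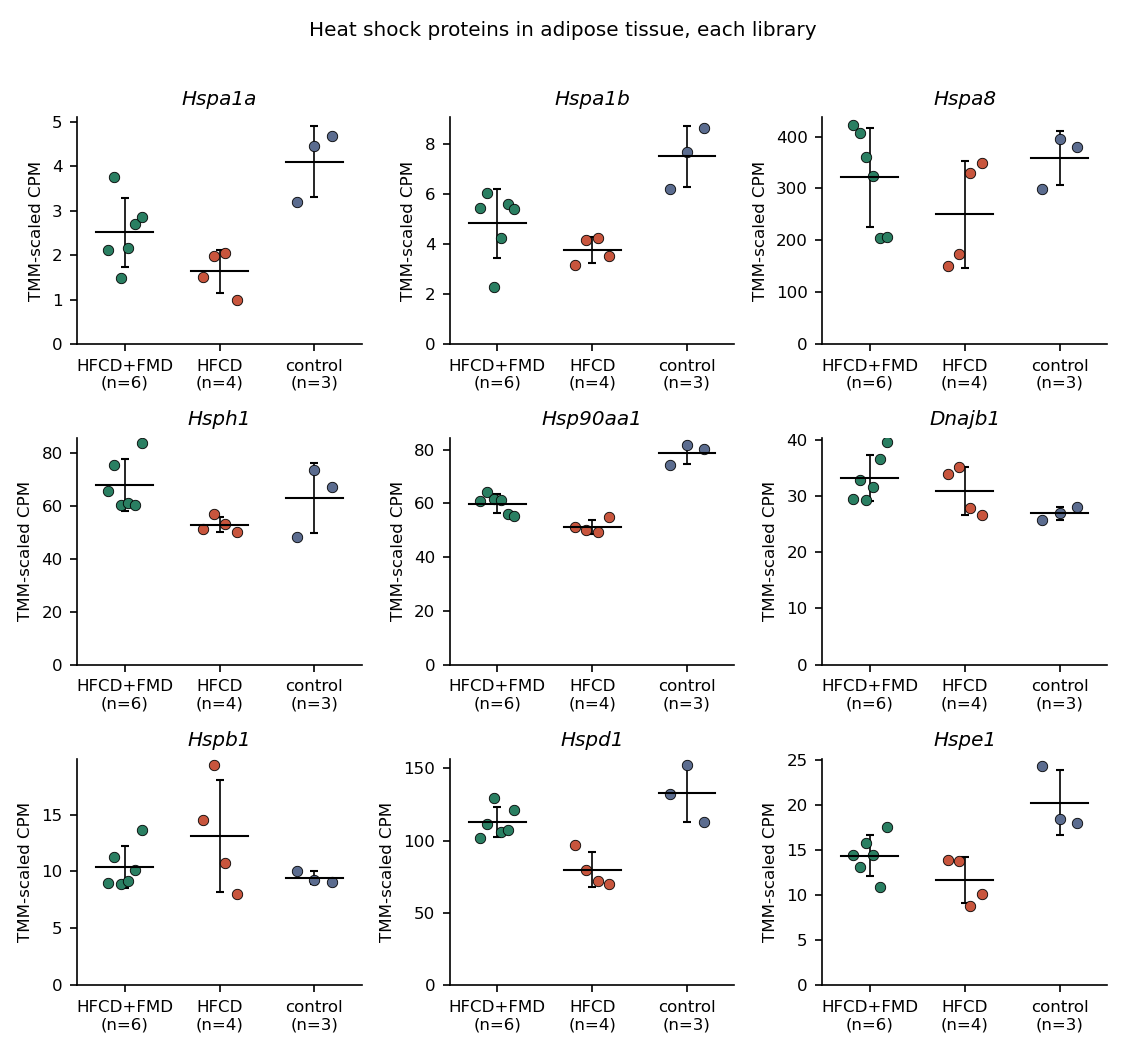
TMM-scaled counts per 1000000 (CPM, linear axes from 0) of each member in each adipose library, for HFCD+FMD (n = 6), HFCD (n = 4) and control (n = 3); points are libraries, horizontal bars means and vertical bars 1 SD. All control points of Hspa1a, Hspa1b, Hsp90aa1, Hspd1 and Hspe1 lie above all HFCD points, whereas those of Hspa8, Hsph1, Dnajb1 and Hspb1 overlap with HFCD.

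Other tissue components moved with the same contrast, and their part in these results was not tested. Transcripts of the mitochondrial genome made up 2.20% to 7.47% of counts in HFCD+FMD, 2.17% to 6.08% in HFCD and 12.6% to 29.3% in control adipose libraries. Summed over 8 of 8 macrophage markers, the level was 665 to 2138 CPM in HFCD+FMD, 1618 to 3235 CPM in HFCD and 161 to 804 CPM in control libraries. All 6 markers of dividing cells summed to 51.8 to 229.8 CPM in HFCD+FMD, 88.7 to 155 CPM in HFCD and 14.8 to 24.4 CPM in control. The 8 white adipocyte markers gave 19172 to 25597 CPM in HFCD+FMD, 22882 to 27334 CPM in HFCD and 30357 to 51080 CPM in control. The 6 mesothelial markers gave 29.2 to 202 CPM in HFCD+FMD, 22.2 to 117 CPM in HFCD and 186 to 418 CPM in control. Control replicate 1 held 304 CPM of 7 brown adipocyte markers, against 13.1 to 28.7 CPM in every other adipose library. In bulk tissue, fewer cells of a type and less RNA per cell cannot be told apart. The labelled tissues carried their markers: 9 cardiomyocyte markers summed to 31821 to 60673 CPM in heart, against 3.11 to 139.7 CPM over the 8 with a row in adipose tissue, where Nppa has none. White adipocyte markers in heart summed to 334 to 897 CPM, and Lep has no row there.

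The inducible HSP70 pair showed the largest fold changes of the members in adipose tissue in HFCD against control and in HFCD+FMD against control. Hspa1a, which encodes HSP70 and is scarcely transcribed in unstressed cells, had a lowest value of 1.48, a median of 2.43 and a highest value of 3.75 CPM in HFCD+FMD libraries. It stood at 1.51, 1.97, 2.06 and 0.997 CPM in HFCD libraries and at 3.20, 4.45 and 4.68 CPM in control libraries. Every HFCD library was below every control library, and the HFCD+FMD libraries spanned the gap between them. Hspa1a fell by 1.33 on the log2 scale in HFCD against control (SE 0.32, adjusted p = 0.0099), that is, it was 2.51-fold lower. Against HFCD, the log2 fold change in HFCD+FMD was 0.61 (SE 0.28, adjusted p = 0.433), and against control it was -0.72 (SE 0.29, adjusted p = 0.0974). Control libraries held 33 to 117 reads of the gene.

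Hspa1b, its neighbour and near-identical over the aligned part of the transcript, ranged from 2.26 to 6.03 CPM with a median of 5.42 in HFCD+FMD libraries. It was at 3.15, 4.14, 4.25 and 3.53 CPM in HFCD and at 6.20, 7.69 and 8.63 CPM in control libraries. Both high-fat groups lay wholly below control. Hspa1b fell by 0.998 on the log2 scale in HFCD against control (SE 0.28, adjusted p = 0.0183). The log2 fold change was 0.36 in HFCD+FMD against HFCD (SE 0.24, adjusted p = 0.599) and -0.64 in HFCD+FMD against control (SE 0.25, adjusted p = 0.0895). The summed counts of the pair, which do not depend on how reads were split between the copies, fell by 1.11 on the log2 scale in HFCD against control (SE 0.27, adjusted p = 0.0097). For the sum, HFCD+FMD against HFCD gave 0.44 (SE 0.23, adjusted p = 0.499) and HFCD+FMD against control -0.67 (SE 0.24, adjusted p = 0.0693).

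Hspa8, the constitutive HSP70 that strips clathrin coats and serves chaperone-mediated autophagy, did not pass in any adipose comparison. It ranged from 205 to 423 CPM with a median of 343 in HFCD+FMD, stood at 149.7, 174, 329 and 348 CPM in HFCD and at 299, 396 and 379 CPM in control libraries. The spread within the 2 high-fat groups was wide: HFCD replicates 1 and 2 and HFCD+FMD replicates 5 and 6 held 149.7 to 207 CPM, and the other 9 adipose libraries 299 to 423 CPM. The low libraries have consecutive titles in the labels, running across both diets. What that order stands for is not given, and its part in these levels was not tested. The share of mitochondrial transcripts was 4.32% and 2.20% in HFCD+FMD replicates 5 and 6, against 7.14%, 7.04%, 7.47% and 3.90% in HFCD+FMD replicates 1 to 4. It was 2.29% and 2.17% in HFCD replicates 1 and 2, against 5.46% and 6.08% in HFCD replicates 3 and 4, and its part in the levels of Hspa8 was not tested. The log2 fold change was -0.52 in HFCD against control (SE 0.33, adjusted p = 0.247), 0.36 in HFCD+FMD against HFCD (SE 0.28, adjusted p = 0.662) and -0.16 in HFCD+FMD against control (SE 0.30, adjusted p = 0.739). The residual SD of its log2 CPM after diet was 0.486, at percentile 80.7 of the 13610 adipose genes with a mean of at least 1 CPM, whose median was 0.264.

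The partners of HSP70 passed in none of the adipose comparisons. Hsph1, an HSP110 protein that exchanges the nucleotide of HSP70, ranged from 60.3 to 84.0 CPM with a median of 63.5 in HFCD+FMD libraries. It was at 51.5, 56.8, 53.4 and 50.3 CPM in HFCD and at 48.1, 73.8 and 67.2 CPM in control libraries. All 6 HFCD+FMD libraries lay above all HFCD libraries, while control spanned both. The log2 fold change was -0.25 in HFCD against control (SE 0.15, adjusted p = 0.226), 0.36 in HFCD+FMD against HFCD (SE 0.13, adjusted p = 0.336) and 0.10 in HFCD+FMD against control (SE 0.14, adjusted p = 0.628). Dnajb1, the HSP40 that hands clients to HSP70, ranged from 29.2 to 39.6 CPM with a median of 32.1 in HFCD+FMD. It stood at 33.9, 35.2, 27.9 and 26.6 CPM in HFCD and at 25.7, 26.9 and 28.1 CPM in control libraries. HFCD+FMD libraries all lay above control, and the difference of 0.30 on the log2 scale did not pass (SE 0.13, adjusted p = 0.101). For HFCD against control the log2 fold change of Dnajb1 was 0.20 (SE 0.14, adjusted p = 0.274), positive where that of the inducible HSP70 genes was negative.

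Hsp90aa1, the inducible cytosolic HSP90, was the only member to pass in 2 adipose comparisons. It ranged from 55.1 to 64.3 CPM with a median of 61.0 in HFCD+FMD, and stood at 51.0, 49.98, 49.2 and 54.8 CPM in HFCD and at 74.2, 81.8 and 80.1 CPM in control libraries. The 3 groups did not overlap, with HFCD lowest, HFCD+FMD above it and control highest. Hsp90aa1 fell by 0.62 on the log2 scale in HFCD against control (SE 0.09, adjusted p = 0.00088) and by 0.39 in HFCD+FMD against control (SE 0.08, adjusted p = 0.0081). Between HFCD+FMD and HFCD it differed by 0.22 on the log2 scale, which did not pass (SE 0.07, adjusted p = 0.281). It did with DESeq2 (adjusted p = 0.0461), which called 1.99% of all genes in that comparison. Its residual SD of 0.0785 on the log2 scale was among the lowest of all adipose genes, at percentile 0.816.

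Hspb1, the small heat shock protein HSP25, ranged from 8.90 to 13.7 CPM with a median of 9.68 in HFCD+FMD, against 14.5, 19.4, 10.7 and 8.02 CPM in HFCD and 10.1, 9.25 and 9.03 CPM in control adipose libraries. HFCD replicates 1 and 2 were above all other adipose libraries, and HFCD replicate 4 was below all of them. On the log2 scale it differed by 0.48 in HFCD against control (SE 0.25, adjusted p = 0.168), -0.35 in HFCD+FMD against HFCD (SE 0.21, adjusted p = 0.557) and 0.14 in HFCD+FMD against control (SE 0.24, adjusted p = 0.708). Without HFCD replicate 4 the first of these passed, at 0.66 (adjusted p = 0.0483).

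The mitochondrial chaperonin fell in both of its parts. Hspd1, whose HSP60 rings enclose the folding protein, ranged from 102 to 129 CPM with a median of 109 in HFCD+FMD, stood at 97.03, 79.9, 72.2 and 70.1 CPM in HFCD and at 132, 153 and 113 CPM in control libraries. All HFCD libraries lay below all others, and HFCD+FMD overlapped with control. Reads of a pseudogene, Hspd1-ps4, also lay lower in HFCD than in control, and their part in the level of Hspd1 was not tested. Hspd1 fell by 0.73 on the log2 scale in HFCD against control (SE 0.14, adjusted p = 0.0033). In HFCD+FMD against HFCD it stood at 0.50, short of the threshold (SE 0.12, adjusted p = 0.146), although DESeq2 called it (adjusted p = 0.0114), and against control it was -0.23 (SE 0.13, adjusted p = 0.202). Hspe1, the HSP10 that caps the chamber, ranged from 10.8 to 17.5 CPM with a median of 14.5 in HFCD+FMD, and stood at 13.9, 13.8, 8.83 and 10.1 CPM in HFCD and at 24.4, 18.4 and 18.0 CPM in control. Both high-fat groups were wholly below control. Hspe1 fell by 0.79 on the log2 scale in HFCD against control (SE 0.20, adjusted p = 0.0106), while HFCD+FMD against HFCD gave 0.30 (SE 0.17, adjusted p = 0.53) and HFCD+FMD against control -0.49 (SE 0.18, adjusted p = 0.0687).

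In HFCD+FMD against HFCD adipose tissue, 8 of the 9 log2 fold changes were positive, with a median of 0.36 against 0.0115 for all genes. At an unadjusted p under 0.05 there were 4 members, Hspa1a, Hsph1, Hsp90aa1 and Hspd1, against 11.2% of all genes. The groups did not overlap for Hsph1, Hsp90aa1 and Hspd1, all higher in HFCD+FMD, where 3.34% of all genes did not overlap and 1.39% were higher. DESeq2 called 2 members and limma voom 0, with backgrounds of 1.99% and 0.397%. Set against control, the HFCD+FMD libraries of Hspa1b, Hsp90aa1 and Hspe1 lay wholly below and those of Dnajb1 wholly above, a separation that 21% of all genes showed. Among the 5 calls of HFCD against control, some rested on single control libraries. Without control replicate 1 Hspe1 was at -0.63 (adjusted p = 0.0629), and Hspa1b was at -0.98 without control replicate 3 (adjusted p = 0.0522) and at -0.88 without control replicate 5 (adjusted p = 0.0539).

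**Figure D2:**
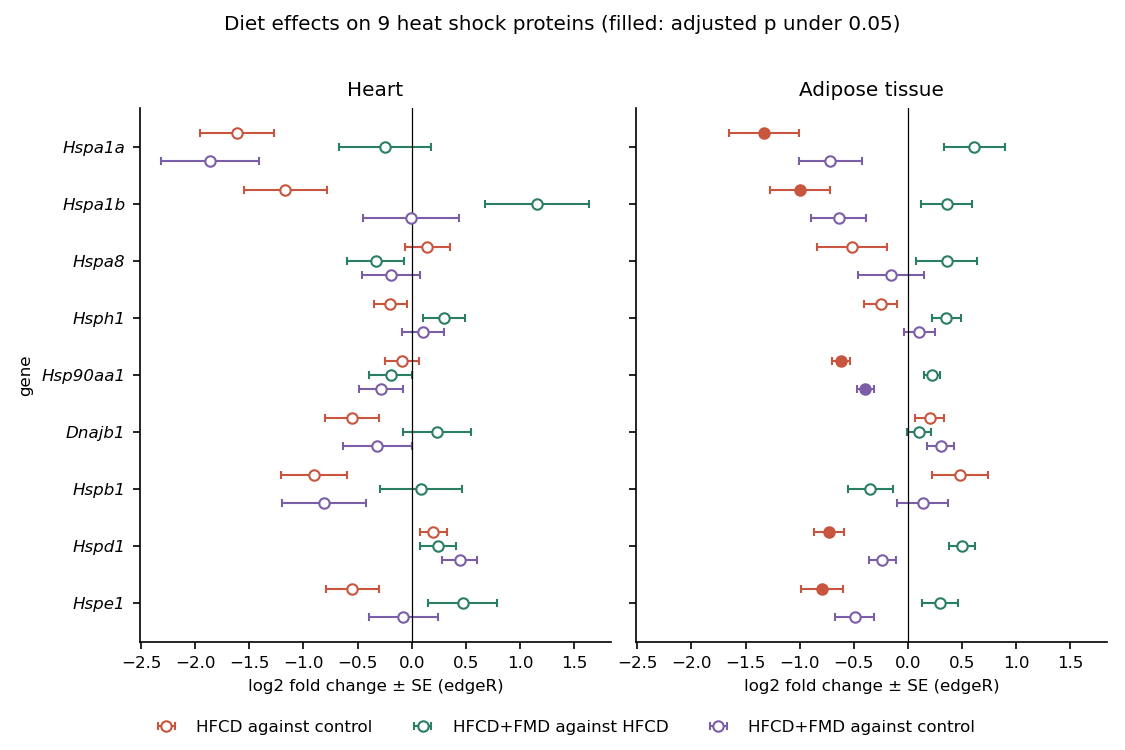
Log2 fold changes of the 9 members in heart (left) and adipose tissue (right) for the 3 diet comparisons, with bars of 1 standard error; filled symbols have an adjusted p under 0.05 (edgeR's quasi-likelihood test). Filled symbols appear in adipose tissue, for 5 members in HFCD against control and for Hsp90aa1 in HFCD+FMD against control, and none appears in heart.

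Members also varied together among adipose libraries of one diet. After subtracting each diet's mean from log2 CPM, Hspa8 ran opposite to Dnajb1 over the 13 libraries (Pearson r = -0.862, Spearman rho = -0.813) and opposite to Hspb1 (r = -0.733, rho = -0.775). Dnajb1 and Hspb1 ran together (r = 0.837, rho = 0.852), as did Hspa1a and Hspa1b (r = 0.776, rho = 0.676). Leaving out the 2 libraries farthest from the median of the first gene gave r = -0.841 for Hspa8 with Dnajb1, -0.829 for Hspa8 with Hspb1 and 0.732 for Dnajb1 with Hspb1. These 13 libraries share 1 depth and scaling step per library, the 36 pairs of members were all computed, and the values are a description without a test. HFCD replicates 1 and 2 and HFCD+FMD replicates 5 and 6, consecutive by title, were the lowest in Hspa8 and the highest in Dnajb1. The part of that order in these correlations was not tested. In heart the same pair of Hspa8 and Dnajb1 gave r = -0.39 over 14 libraries and -0.17 without the 2 farthest.

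**Figure D3:**
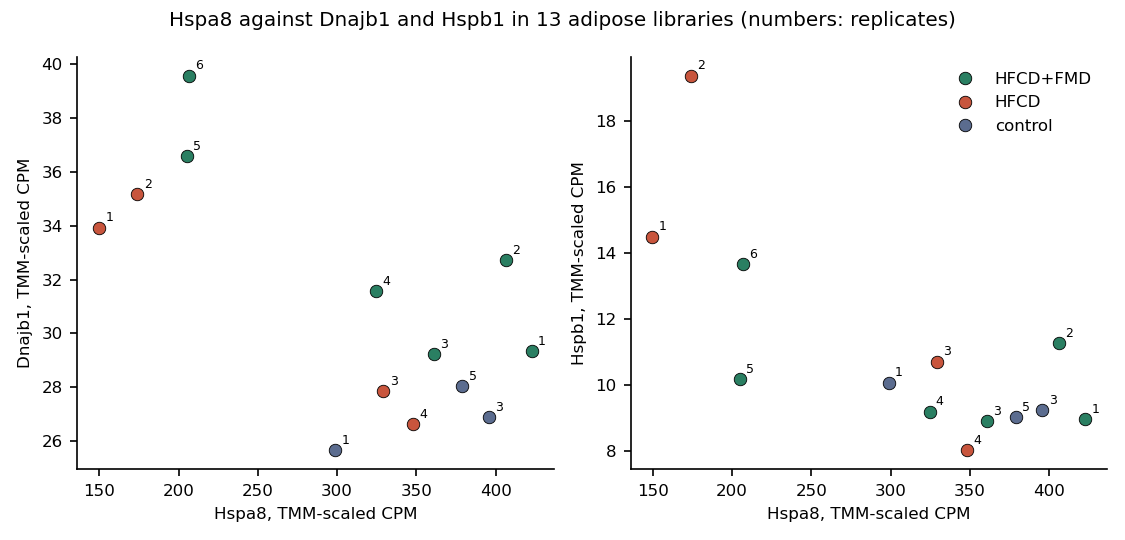
TMM-scaled CPM (linear axes) of Hspa8 (horizontal axis) against Dnajb1 (left) and Hspb1 (right) in 13 adipose libraries, coloured by diet and marked with replicate numbers. HFCD replicates 1 and 2, the lowest of their diet in Hspa8, are its highest in Dnajb1 and Hspb1. The values r = -0.862 and r = -0.733 given in the text were computed on log2 CPM centred on each diet's mean, which is not what is drawn.

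In heart none of the 9 members passed in any of the 3 diet comparisons, where edgeR called 0% of all genes in HFCD against control, 0.106% in HFCD+FMD against HFCD and 0.0227% in HFCD+FMD against control. At an unadjusted p under 0.05 there were 5 members in HFCD against control (12.8% of all genes), 1 in HFCD+FMD against HFCD (11%) and 2 in HFCD+FMD against control (9.48%). DESeq2 called 1 member in HFCD against control (0.462% of all genes), 0 in HFCD+FMD against HFCD (2.11%) and 1 in HFCD+FMD against control (1.1%), and limma voom called 0 in each (0%, 0.121% and 0.00756% in that order of comparisons). In HFCD against control, 7 of the 9 log2 fold changes were negative, with a median of -0.55 against 0.0051 for all genes, and the libraries of Hspa1a and Hspb1 lay wholly below control, where 7.19% of all genes did not overlap and 3.98% were lower. In HFCD+FMD against control 0 members were free of overlap, against 9.02% of all genes. With limma on the deposited log2 values 1 member passed in HFCD against control (0.516% of all genes) and 2 in HFCD+FMD against control (9.21%).

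The heart libraries fall into 3 sets, found because the deposited log2 values differ from those of the counts by 1 offset per gene and set. Set A is made of 3 control hearts (replicates 2, 3 and 5) with 4 HFCD hearts (replicates 1 to 4). In set B, HFCD+FMD replicate 1 stands with 2 control hearts (replicates 4 and 6). The remaining HFCD+FMD hearts (replicates 2, 3 and 5) make up set C together with HFCD replicate 5. The labels give the sets no name or meaning. They entered the heart model as a factor, and only HFCD replicate 5 and HFCD+FMD replicate 1 tie the HFCD+FMD diet to the other diets. The mitochondrial genome took 29.5% to 61.99% of counts in HFCD+FMD hearts, 36.4% to 71.5% in HFCD hearts and 21.8% to 32.6% in control hearts. Summed over 9 of 9 cardiomyocyte markers, the level was 48130 to 56459 CPM in HFCD+FMD, 31821 to 42071 CPM in HFCD and 43168 to 60673 CPM in control hearts, so that HFCD hearts lay below all others. All 6 endothelial markers summed to 872 to 956 CPM in HFCD+FMD, 848 to 953 CPM in HFCD and 679 to 842 CPM in control hearts, which lay below all others. The 7 tested white adipocyte markers had a median log2 fold change of -2.34 in HFCD against control, where 0 passed. Their median was -5.47 in HFCD+FMD against HFCD and -7.81 in HFCD+FMD against control. In each of these, 2 of the 7 fell, against 0.106% and 0.0227% of all genes called in either direction. The part of these differences in the heart values was not tested. The fit of all 14 libraries leaves diet and set partly entangled, so values within a set are given beside those of the fit. Within set A, HFCD against control gave 7 negative and 2 positive log2 ratios of mean CPM. Without overlap there were Hspa1a, Hspa1b, Dnajb1 and Hspb1 below control and Hspd1 above it, at 0.27. Within set C, the 3 HFCD+FMD hearts against the 1 HFCD heart gave -0.25 for Dnajb1 and -0.34 for Hspb1, opposite in sign to the fit of all libraries. The same set gave -0.54 for Hspa1a and for Hspa8, -0.29 for Hsp90aa1, 0.63 for Hspa1b, 0.22 for Hsph1, 0.42 for Hspd1 and 0.38 for Hspe1. Within set B, the 1 HFCD+FMD heart against the 2 control hearts gave -1.45 for Hspa1a, -0.33 for Hspb1 and -0.17 for Hsp90aa1, and 0.52 for Hspa1b, 0.25 for Hspd1, 0.22 for Dnajb1 and 0.19 for Hsph1. Hspa8 and Hspe1 lay at 0.051 and 0.031 there. Sets B and C compare with a single library on one side.

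**Figure D4:**
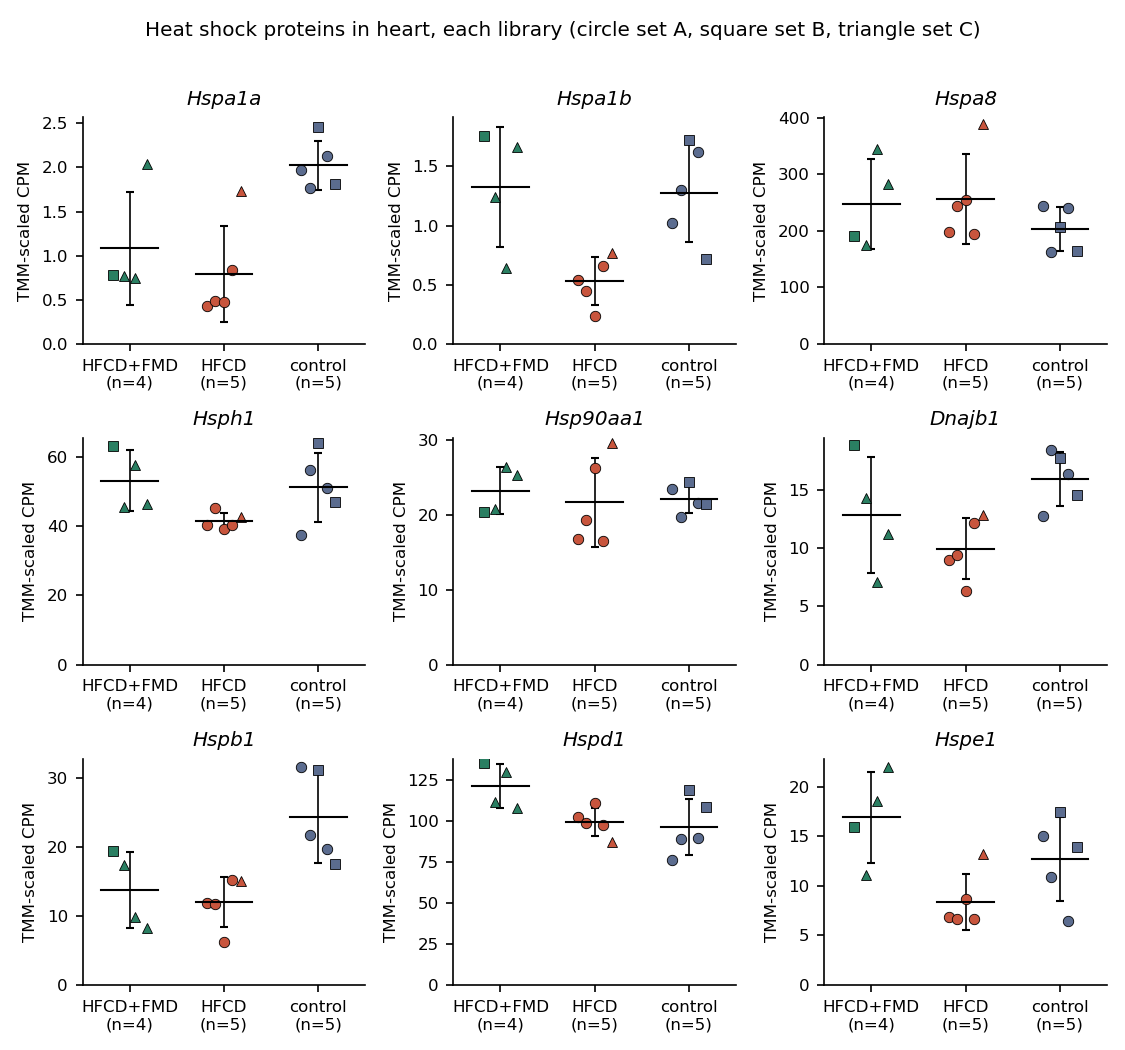
TMM-scaled CPM (linear axes from 0) of each member in each heart library for HFCD+FMD (n = 4), HFCD (n = 5) and control (n = 5); circles, squares and triangles mark library sets A, B and C, horizontal bars are means and vertical bars 1 SD. Control points of Hspa1a and Hspb1 lie above all HFCD points, with HFCD replicate 5 of set C the highest HFCD point of Hspa1a.

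Hspa1a stood at 0.780, 0.770, 0.749 and 2.04 CPM in HFCD+FMD hearts, at 0.433, 0.486, 0.476, 0.837 and 1.73 CPM in HFCD hearts and at 1.97, 1.77, 2.45, 2.12 and 1.81 CPM in control hearts. HFCD replicate 5 and HFCD+FMD replicate 5, both of set C, were the highest of their diets. HFCD against control gave a value of -1.62 on the log2 scale (SE 0.35, adjusted p = 0.312). The 4 HFCD and 3 control libraries of set A alone did not overlap and gave a log2 ratio of means of -1.81. In HFCD+FMD the log2 fold change was -1.86 against control (SE 0.45, adjusted p = 0.174) and -0.25 against HFCD (SE 0.43, adjusted p = 0.919). Under the other tools, filters and models, Hspa1a in HFCD+FMD against control ranged from -1.99 to -0.88. With DESeq2 Hspa1a passed in HFCD against control (adjusted p = 0.0129) and in HFCD+FMD against control (adjusted p = 0.0295). These libraries held 6 to 81 reads of Hspa1a.

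Hspa1b stood at 1.75, 1.24, 0.642 and 1.66 CPM in HFCD+FMD hearts, at 0.541, 0.449, 0.238, 0.658 and 0.765 CPM in HFCD hearts and at 1.02, 1.30, 1.73, 1.63 and 0.715 CPM in control hearts. Most HFCD hearts were below the other hearts, with overlap at HFCD+FMD replicate 3 and control replicate 6. The log2 fold change was -1.17 in HFCD against control (SE 0.38, adjusted p = 0.367), 1.16 in HFCD+FMD against HFCD (SE 0.48, adjusted p = 0.383) and -0.01 in HFCD+FMD against control (SE 0.44, adjusted p = 0.999). Within set A the log2 ratio of HFCD to control was -1.48, with no overlap. Summed with Hspa1a, the pair gave -1.39 in HFCD against control (SE 0.33, adjusted p = 0.320), 0.42 in HFCD+FMD against HFCD (SE 0.40, adjusted p = 0.803) and -0.97 in HFCD+FMD against control (SE 0.41, adjusted p = 0.478).

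Hspa8 stood at 192, 174, 344 and 283 CPM in HFCD+FMD hearts, at 198, 244, 255, 194 and 389 CPM in HFCD hearts and at 243, 162, 206, 241 and 164 CPM in control hearts. The 2 highest libraries were HFCD replicate 5 and HFCD+FMD replicate 3, both of set C, and the diets overlapped. Its log2 fold change was 0.14 in HFCD against control (SE 0.21, adjusted p = 0.743), -0.33 in HFCD+FMD against HFCD (SE 0.26, adjusted p = 0.744) and -0.19 in HFCD+FMD against control (SE 0.27, adjusted p = 0.845). Hsph1 stood at 63.4, 45.5, 57.9 and 46.5 CPM in HFCD+FMD hearts, at 40.4, 45.2, 39.2, 40.6 and 42.8 CPM in HFCD hearts and at 37.7, 56.5, 64.3, 51.3 and 47.1 CPM in control hearts. HFCD+FMD hearts all lay above HFCD hearts, by a small gap, a separation that 4.65% of all genes showed and 2.59% in that direction. Its value was 0.30 on the log2 scale in that comparison (SE 0.19, adjusted p = 0.661), -0.20 in HFCD against control (SE 0.15, adjusted p = 0.529) and 0.10 in HFCD+FMD against control (SE 0.20, adjusted p = 0.882).

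Dnajb1 stood at 18.9, 14.3, 7.06 and 11.2 CPM in HFCD+FMD hearts, at 8.99, 9.38, 6.35, 12.1 and 12.9 CPM in HFCD hearts and at 12.7, 18.4, 17.8, 16.4 and 14.6 CPM in control hearts. HFCD hearts were the lower, with replicate 5 of set C just above the lowest control. In HFCD against control it gave -0.55 on the log2 scale (SE 0.25, adjusted p = 0.385), and within set A the ratio of -0.78 came without overlap. HFCD+FMD gave 0.24 against HFCD (SE 0.31, adjusted p = 0.879) and -0.32 against control (SE 0.32, adjusted p = 0.784). Hspb1 stood at 19.4, 17.4, 9.89 and 8.26 CPM in HFCD+FMD hearts, at 11.9, 11.8, 6.19, 15.2 and 15.03 CPM in HFCD hearts and at 31.6, 21.7, 31.2, 19.7 and 17.6 CPM in control hearts. All HFCD hearts lay below all control hearts, and the difference of -0.90 on the log2 scale did not pass (SE 0.30, adjusted p = 0.367). Within set A it was -1.11, again without overlap. In HFCD+FMD the log2 fold change of Hspb1 was 0.09 against HFCD (SE 0.38, adjusted p = 0.968) and -0.81 against control (SE 0.39, adjusted p = 0.547).

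Hsp90aa1 stood at 20.3, 20.7, 26.4 and 25.3 CPM in HFCD+FMD hearts, at 16.7, 19.3, 26.2, 16.4 and 29.5 CPM in HFCD hearts and at 23.4, 19.6, 24.3, 21.6 and 21.5 CPM in control hearts. The diets overlapped throughout, and HFCD against control gave -0.09 on the log2 scale (SE 0.16, adjusted p = 0.782), HFCD+FMD against HFCD -0.19 (SE 0.20, adjusted p = 0.82) and HFCD+FMD against control -0.29 (SE 0.20, adjusted p = 0.689). Hspd1 stood at 135, 111, 129.8 and 108 CPM in HFCD+FMD hearts, at 103, 98.3, 111, 97.4 and 87.2 CPM in HFCD hearts and at 76.1, 88.7, 119, 89.3 and 108 CPM in control hearts. Its log2 fold changes were positive throughout, at 0.20 in HFCD against control (SE 0.12, adjusted p = 0.47), 0.24 in HFCD+FMD against HFCD (SE 0.16, adjusted p = 0.681) and 0.44 in HFCD+FMD against control (SE 0.16, adjusted p = 0.402). Hspe1 stood at 15.98, 11.1, 18.6 and 22.0 CPM in HFCD+FMD hearts, at 6.82, 6.69, 8.65, 6.61 and 13.2 CPM in HFCD hearts and at 15.1, 10.9, 17.4, 6.45 and 13.9 CPM in control hearts. HFCD hearts other than replicate 5 were below all but 1 of the other hearts, and the log2 fold change was -0.55 in HFCD against control (SE 0.25, adjusted p = 0.385), 0.47 in HFCD+FMD against HFCD (SE 0.32, adjusted p = 0.681) and -0.08 in HFCD+FMD against control (SE 0.32, adjusted p = 0.952). Hspd1 and Hspe1, which overlap head to head, gave r = -0.151 over the 14 heart libraries (0.032 without the 2 farthest) and 0.557 over the 13 adipose libraries (0.636).

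Reads counted for genomic copies of the members distinguished set C. Gm15459, a processed pseudogene of Hspa8, had 163 to 629 reads in the 4 set C libraries, against 1 to 9 reads in the other 10 heart libraries. Hsp25-ps1, a pseudogene of Hspb1, had 78 to 212 reads in set C against 0 to 12 in the others, and Hspd1-ps3 of Hspd1 had 173 to 688 in set C against 1 to 10 in the others. The same held for processed pseudogenes in general: the 214 with a row summed to 846 to 1323 unscaled CPM in set C and to 128 to 331 CPM in the other hearts. Set C holds 3 of the 4 HFCD+FMD hearts and 1 HFCD heart, so in comparisons with HFCD+FMD this difference moves with diet, and its part in the values of Hspa8, Hspb1 and Hspd1 was not tested. In adipose tissue the 111 processed pseudogenes with a row summed to 182 to 319.7 unscaled CPM in all 13 libraries.

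Whether a diet difference was unequal in the 2 tissues was tested as an interaction in a joint fit of 12606 genes. The 27 libraries came from a study of 18 mice by its design text, so some mice gave both tissues. The labels do not say which, and the fit treats all libraries as independent, so its p-values, those of the tissue comparison included, do not account for shared animals. For HFCD against control, 4 of the 9 members differed between heart and adipose tissue, against 22% of all genes, and limma voom called 3, against 19%. Hspb1 gave a heart change minus adipose change of -1.51 (SE 0.41, adjusted p = 0.0116) and Dnajb1 one of -0.89 (SE 0.30, adjusted p = 0.0347), both from a negative value in heart and a positive one in adipose tissue. Hspd1 (0.77, SE 0.19, adjusted p = 0.0059) and Hsp90aa1 (0.57, SE 0.20, adjusted p = 0.0425) differed the other way. In the fits of each tissue, Hspd1 was at 0.20 in heart and -0.73 in adipose tissue, and Hsp90aa1 at -0.09 and -0.62. Hspb1 and Hspd1 kept their call whichever of the 27 libraries was left out. Hsp90aa1 lost it in 11 of 27 cases (heart HFCD replicates 3 and 5, heart control replicates 3, 5 and 6, adipose HFCD replicates 1, 2 and 3, and each adipose control replicate), with an adjusted p of up to 0.0863. Dnajb1 lost it in 8 of 27 cases (heart HFCD replicates 2 and 3, heart control replicates 3 and 4, adipose HFCD replicates 1 and 2, adipose control replicates 1 and 3), with up to 0.0791. The joint fit carries no set factor, since the sets exist in heart alone.

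No member differed between the tissues in HFCD+FMD against HFCD by edgeR or limma voom, which called 0.0159% and 0.00793% of all genes. For HFCD+FMD against control 1 member did, against 17.1% of all genes (limma voom also 1, against 14.5%). This was Hspd1, at 0.57 (SE 0.18, adjusted p = 0.033), positive in heart and negative in adipose tissue. It lost the call without heart HFCD+FMD replicate 3, heart control replicate 3 or 5, or adipose control replicate 1 or 3, with an adjusted p of up to 0.133. Without heart HFCD+FMD replicate 1 or 2 the count of members was 3 and 2.

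On the control diet, 5 members differed between heart and adipose tissue, where 63.8% of all genes did (limma voom also 5, with 62.6%), again with libraries taken as independent although the tissues share mice. Hspb1 was higher in heart by 2.27 on the log2 scale (SE 0.33, adjusted p = 1.38e-06), a 4.81-fold difference, followed by Hsph1 at 0.60 (SE 0.16, adjusted p = 0.0018) and Hspd1 at 0.43 (SE 0.14, adjusted p = 0.0090). Hspa1b was lower in heart by a log2 difference of -1.66 (SE 0.31, adjusted p = 4.71e-05) and Hsp90aa1 by -0.94 (SE 0.14, adjusted p = 3.82e-06). For Hsph1 and Hspd1 the direction rests on scaling the tissues jointly. Jointly scaled control means were 70.3 and 131.8 CPM in heart, and 46.5 and 97.8 CPM in adipose tissue. With each tissue scaled by itself, as for the CPM above, they were 51.4 and 96.2 in heart and 63.0 and 133 in adipose tissue. Hspb1, Hspa1b and Hsp90aa1 kept their direction, with Hspb1 at 24.3 CPM in heart and 9.45 CPM in adipose tissue. Hspa1a, 99.3% identical to Hspa1b over the 2197 aligned bases of their transcripts, was at -0.14 (SE 0.38, adjusted p = 0.763). Without adipose control replicate 5, Hspd1 was at 0.33 (adjusted p = 0.0749). Tissue, dissection and any separate handling of the tissues cannot be told apart here.

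The wider chaperone system was described with 10 lists of 133 genes, of which 126 were tested in adipose tissue. In HFCD against control adipose tissue 37 of them fell (29.4%) and 3 rose (2.38%), against 14.2% and 15.7% of all genes, with a median log2 fold change of -0.11. Between HFCD+FMD and control 18 fell (14.3%) and 5 rose (3.97%), against 9.25% and 10.5%. Between HFCD+FMD and HFCD 0 passed, with 25 of the 126 at an unadjusted p under 0.05, against 11.2% of all genes, and with 84 positive and 42 negative values. In heart 0 passed in each comparison, with 10 of 126 at an unadjusted p under 0.05 in HFCD+FMD against HFCD (11% of all genes), 9 in HFCD+FMD against control (9.48%) and 23 in HFCD against control (12.8%). No test of the lists was run, and they too were chosen with earlier results of these data known.

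The regulators of the response were among those that fell. Of 4 tested HSF genes and regulators, 3 fell in HFCD against control adipose tissue, with a median of -0.69. Beside this list and that of HSF1 targets below, 14.2% of all genes fell and 15.7% rose in the same comparison. Hsf1 averaged 19.7 ± 2.20 CPM in HFCD and 27.9 ± 2.89 CPM in control libraries (SD, n = 4 and 3), a change of -0.50 on the log2 scale (SE 0.12, adjusted p = 0.0090). Hsbp1, a small protein that binds HSF1, averaged 165 ± 43.3 CPM in HFCD and 304 ± 18.97 CPM in control, a change of -0.88 (adjusted p = 0.0094), and Hsf4, a relative of Hsf1, was at -0.87 (adjusted p = 0.0196). Among 18 other genes listed as HSF1 targets, many of which also stand in the other lists, 10 fell and 0 rose, with a median of -0.39. Chordc1, an HSP90 partner, averaged 37.5 ± 2.75 CPM in HFCD and 63.9 ± 6.62 CPM in control, and Ppid, a cyclophilin that joins HSP90 complexes, averaged 21.0 ± 1.03 CPM in HFCD and 36.5 ± 1.14 CPM in control.

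The lists around cytosolic HSP70 and HSP90 differed in their balance, beside the 14.2% of all genes that fell and the 15.7% that rose. Of 14 HSP90 relatives and co-chaperones 7 fell and 0 rose, with 2 positive and 12 negative values and a median of -0.48, among them Ptges3, the p23 co-chaperone, at -0.62, and Cacybp at -0.75. Of 8 other HSP70 and HSP110 genes 2 fell, Hspa4l by 0.45 and Hspa4 by 0.33 on the log2 scale, with 4 values positive, 4 negative and a median of -0.022. Of 31 J-domain genes 7 fell and 1 rose, with 13 positive and 18 negative values and a median of -0.07. Dnaja1, a farnesylated partner of HSP70, averaged 33.6 ± 4.52 CPM in HFCD and 59.7 ± 3.03 CPM in control, a change of -0.83, and Dnajb2 one of -1.10. Bag1, a nucleotide exchange factor, fell by 0.96 on the log2 scale and was 1 of 3 of 8 such genes to fall, with 5 positive and 3 negative values and a median of 0.14 over the 8.

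**Figure D5:**
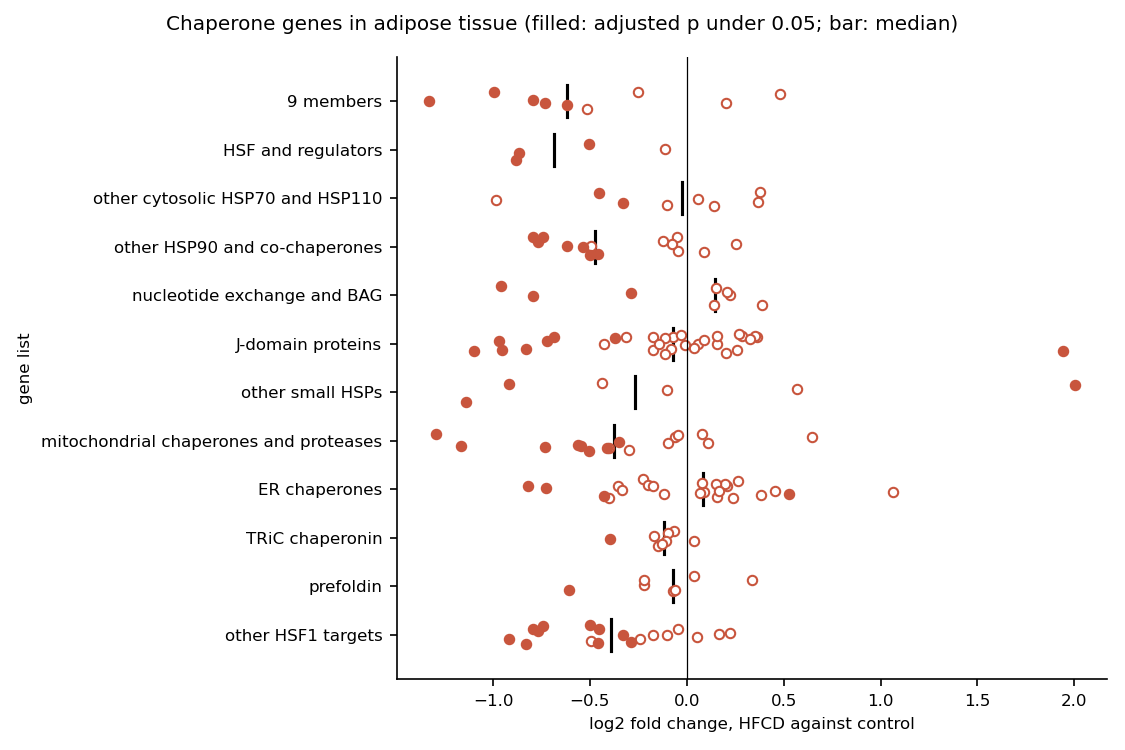
Log2 fold changes in HFCD against control adipose tissue for the members and for each list of chaperone genes; each point is a gene, filled where the adjusted p is under 0.05, and each bar is a list's median. The medians of HSF regulators (-0.69) and HSP90 co-chaperones (-0.48) lie below 0, and those of ER chaperones (0.08) and BAG proteins (0.14) above it.

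Mitochondrial partners fell beside Hspd1 and Hspe1. Of 16 mitochondrial chaperones and proteases 8 fell and 0 rose in HFCD against control adipose tissue, with a median of -0.38. Of all genes, 14.2% fell and 15.7% rose there. Clpp, the proteolytic core of the matrix Clp protease, averaged 26.6 ± 2.63 CPM in HFCD and 59.8 ± 18.7 CPM in control, a log2 fold change of -1.17, and Dnajc15, a J-domain protein of the inner membrane, was at -1.30. Dnaja3, the matrix J-domain protein, and Timm44, which anchors the import motor, were at -0.73 and -0.50. The share of mitochondrial transcripts was lower in the same HFCD libraries, as given above.

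Chaperones of the endoplasmic reticulum and the small heat shock proteins were mixed. Of 24 ER genes 3 fell and 1 rose in HFCD against control adipose tissue, with a median of 0.08. P4hb, protein disulfide isomerase, was higher at 522 ± 27.6 CPM in HFCD against 362 ± 57.0 CPM in control, a log2 fold change of 0.53, and Dnajb9, an ER J-domain protein, was at -0.82. Of 6 other small heat shock proteins 1 rose and 2 fell. Hspb7, best known from heart muscle, averaged 42.7 ± 7.23 CPM in HFCD and 10.5 ± 4.15 CPM in control adipose libraries, a change of 2.00 on the log2 scale (SE 0.54, adjusted p = 0.0162), and Hspb8, the partner of Bag3, was at -0.92. In the TRiC chaperonin, which folds actin and tubulin, 1 of 8 subunits fell (Cct6a, at -0.40), and in prefoldin, which feeds it, 1 of 7 (Pfdn2, at -0.61). For TRiC, prefoldin and the ER genes the share that fell is near the 14.2% of all genes.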

How the data were processed

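RNA was sequenced from heart and adipose tissue with ribosomal RNA depleted, per the labels' protocols. Reads were handled with STAR 2.5.3, limma, edgeR and R 3.5.3 on mm10, per the submitters' processing notes; the read counter, its annotation and its treatment of strand and of multiple matches are not stated. Deposited by the authors are counts per gene and, separately, log2 CPM, in which heart values had the differences between 3 library sets removed: after subtracting each set's offset, deposited and recomputed values agreed to 9.8e-09. The count tables also hold 63 (adipose) and 72 (heart) genes without a log2 value. Of 34 labelled libraries 27 had columns, and 7 were not analysed here.

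Counts were tested with edgeR 4.0.16 in R 4.3.3 (TMM scaling, filterByExpr, robust quasi-likelihood F test, two-sided, Benjamini-Hochberg, threshold 0.05), over 15112 adipose and 13230 heart genes with all 3 diets in one fit per tissue, the heart fit with library set as a factor, and over 12606 genes for tissue interactions. CPM values are counts per 1000000 of the TMM-scaled library size, scaled within each tissue except where joint scaling is named. Alternatives used DESeq2 1.42.0, limma 3.58.1 (voom, and the deposited log2 values), other scaling and filters, age, pairs of diets, no set factor, and each library left out. The fit was tested on simulated counts of HFCD against control, with 200 genes changed, 2-fold or 4-fold in equal numbers. It called 50 of the 2-fold and 80 of the 4-fold changes in adipose tissue, with 6 false calls. In heart it called 68 and 97, with 2 false calls, and the simulated heart counts carried no set differences. Coordinates came from GENCODE M21, and sequences from RefSeq GRCm38.p6.

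All 9 members are named. Of each list, up to 4 genes with the smallest p among those that passed were eligible to be named, or 1 where none passed. Members and lists were chosen with earlier results of these data known. Shares of reads rest on 15604982 to 47859170 reads a library.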

Additional observations from a re-analysis of the deposited data

Results flagged for a closer look

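Within 3 of the 45 groups of 4 to 6 libraries tested for a single value far from the rest (Dixon's criterion, which chance meets in about 1 of 20 groups), 1 library stood apart. Hspa1a was at 2.04 CPM in heart HFCD+FMD replicate 5, against 0.749 to 0.780 CPM in the other 3. Hspb1 was at 6.19 CPM in heart HFCD replicate 3, against 11.8 to 15.2 CPM in the other 4, in the library with 71.5% mitochondrial transcripts. Hspa1b was at 2.26 CPM in adipose HFCD+FMD replicate 3, against 4.24 to 6.03 CPM in the other 5.

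The diet effect differed between the tissues for 4 members in HFCD against control, tested as heart change minus adipose change: Hsp90aa1 0.57, Dnajb1 -0.89, Hspb1 -1.51 and Hspd1 0.77. In HFCD+FMD against control it differed for Hspd1, at 0.57.

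Reads counted for pseudogenes of members appeared in set C hearts well above control hearts, none of which is in set C. The lowest set C library had 163 reads of Gm15459, copied from Hspa8, against at most 9 in control hearts, 78 reads of Hsp25-ps1, copied from Hspb1, against at most 12, and 173 reads of Hspd1-ps3, copied from Hspd1, against at most 10. The part of these copies in the members' values was not tested.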

How the results depend on the processing

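Of 65 results refitted under another tool, filter or model, 58 stayed the same and 7 moved. Most are counts of members called, the same if within 1.5 times the reported count. The rest are log2 fold changes of the summed Hspa1 pair, the same if sign and call held. The 7 that moved are all counts of members. In adipose tissue DESeq2 called 2 members in HFCD+FMD against HFCD (Hsp90aa1 and Hspd1, reported 0) and 2 in HFCD+FMD against control (Hsp90aa1 and Hspe1, reported 1), where Hsp90aa1 and Hspa1b, again 2, passed with age as a covariate. In heart DESeq2 called 1 in HFCD against control and 1 in HFCD+FMD against control, each Hspa1a, and limma on the deposited log2 values called 1 (Hspa1a) and 2 (Hspa1a and Hspd1), where 0 was reported. The deposited heart values had their set offsets removed beforehand, which the limma fit cannot count. Leaving out 1 library gave 4 to 6 members in adipose HFCD against control, 2 to 4 for the tissue difference in HFCD against control, 0 to 3 for that in HFCD+FMD against control and 4 to 5 for heart against adipose tissue on control diet.

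The values that changed sign were log2 fold changes that passed in neither case, in heart comparisons with HFCD+FMD except for Hsph1 in adipose tissue. In HFCD+FMD against HFCD, fitting only those diets gave Dnajb1 -0.24 and Hspb1 -0.33, and leaving out the set factor gave Hspa1a 0.43 and Hsp90aa1 0.10. In HFCD+FMD against control, fitting only those diets gave Hspa1b 0.52, Hspa8 0.042, Dnajb1 0.21 and Hspe1 0.023, age as a covariate gave Hspe1 0.16, limma voom gave Hspa1b 0.082, and leaving out the set factor gave Hspa1b 0.056, Hspa8 0.29, Hsp90aa1 0.071 and Hspe1 0.41. With 1 library left out, HFCD+FMD against HFCD in heart ranged from -0.58 to 0.32 for Hspa1a, -0.54 to 0.0069 for Hspa8, -0.23 to 0.995 for Dnajb1, -0.33 to 0.77 for Hspb1, -0.017 to 0.41 for Hspd1 and -0.061 to 1.22 for the summed Hspa1 pair. HFCD+FMD against control ranged in heart from -0.75 to 0.52 for Hspa1b, -0.50 to 0.042 for Hspa8, -0.014 to 0.20 for Hsph1, -1.01 to 0.21 for Dnajb1 and -0.22 to 0.057 for Hspe1, and in adipose tissue from -0.051 to 0.23 for Hsph1. The cause was not tested; heart HFCD replicate 5 and HFCD+FMD replicate 1, the links between sets, gave most of these extremes.

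No paired analysis was possible because the labels give no replicate numbers, and those used here only name libraries in accession order. Hspa1a and Hspa1b rest on as few as 3 reads a heart library, which limits what can be seen for them there.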

Other observations

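The genes other than the 9 members whose adipose profile over 13 libraries ran closest to the mean profile of Hspa1a, Hspa1b, Dnajb1 and Hsph1 (centred on diet, 13606 genes ranked) were Rpsa (r = 0.916), Cct5 (0.860), a TRiC subunit of the lists above, Ncoa5, Zfp369 and Tcf23. Closest to the mean of Hspd1 and Hspe1 were Usp15 (r = 0.955), Gtpbp4 (0.942), Tomm20 (0.908), Psma2 (0.903) and Mcph1 (0.898). In heart, over 14 libraries, they were Galk2 (r = 0.882) and Map2k3 (0.875) for the first profile and 2500002B13Rik (0.932) and Rmnd1 (0.919) for the second. These are the highest of many r values and carry no test.

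Hspd1-ps4, a pseudogene of Hspd1, was counted in adipose tissue at 393 to 2725 reads a library. In TMM-scaled CPM it stood at 11.7 to 61.3 in HFCD+FMD, 18.8 to 28.8 in HFCD and 36.6 to 48.6 in control libraries. HFCD thus lay wholly below control, as for Hspd1 itself. The part of this copy in the adipose values of Hspd1 was not tested. In heart, all 15 tested immediate early genes, a group that stress and dissection can switch on within minutes, had a negative log2 fold change in HFCD against control (median -0.84), a comparison in which edgeR called 0% of all genes. All 15 were also negative in HFCD+FMD against control (median -1.02), where edgeR called 0.0227% of all genes. In HFCD+FMD against HFCD, 8 were positive and 7 negative. Their part in the values of the inducible heat shock genes, which also lay lower in HFCD hearts, was not tested.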
